A study of Mus musculus with 18 samples.

Results

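Tpt1, Pabpc1, Nap1l1, Naca, Btf3, Fau and Npm1 are listed TOP genes whose symbols do not place them among the ribosomal proteins (Rpl, Rps), the elongation factors (Eef) or the initiation factors (Eif). All 7 were found among the 11243 protein-coding genes with a count in every library, and they were chosen by name, not by their values. The libraries came from RAW264.7 cells, an established mouse macrophage line that stands in for primary macrophages. Control cells received vehicle, LPS cells received 500 ng/mL of bacterial lipopolysaccharide for 6 h, and LPS+torin1 cells received the same LPS after 15 min of pre-treatment with 100 nM torin1, an active-site inhibitor of the mTOR kinase. From each lysate both the total mRNA and the polysome-associated mRNA, pooled from heavy polysomes, were sequenced, and 3 independent experiments gave 18 libraries from 9 lysates. The comparisons ask how LPS, and mTOR inhibition during LPS, change the level of each mRNA in total and in polysome-associated mRNA.

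TOP mRNAs carry a 5′ terminal oligopyrimidine tract, a C at the cap followed by a run of C and T. When mTORC1 is active these mRNAs are translated efficiently, and when it is inhibited the cap-binding protein LARP1 and the 4E-BPs hold many of them off polysomes. Most known TOP mRNAs encode ribosomal proteins. The 7 genes described here have other roles. Tpt1 encodes TCTP, a small abundant protein linked to growth and survival. Naca and Btf3 encode the alpha and beta subunits of the nascent polypeptide-associated complex, which binds chains as they leave the ribosome. Npm1 encodes nucleophosmin, a nucleolar histone chaperone active in ribosome assembly, and Nap1l1 a cytoplasmic histone chaperone. Pabpc1 encodes the cytoplasmic poly(A)-binding protein. Fau encodes a ubiquitin-like protein fused to ribosomal protein S30, so for Fau the description "outside the core ribosome" holds for the symbol and not for the product.

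Sequence around the annotated start is shown to let the tract be compared with the polysome values given later. RefSeq start sites on GRCm38.p6 were matched by symbol for 5 of the 7 genes (6 windows, as Btf3 has 2 starts), each window running from 10 bases before to 20 bases after the start. Capitals mark every C followed by at least 4 further bases that are each C or T, searched on the transcribed strand only.
Fau (chr19:6057937-6057966, + strand): gCCCCCaCTTCTTCCTCTTTCTTgactcca
Nap1l1 (chr10:111473217-111473246, + strand): gCTCTCgggtCTTTTTTagcgccatctgct
Naca (chr10:128035336-128035365, + strand): tcgttCTCTTaaagaggaaacccggacgcc
Tpt1 (chr14:75845246-75845275, + strand): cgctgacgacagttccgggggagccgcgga

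The tract of Fau was 16 bases long and spanned the annotated start, from position −3, and that of Nap1l1 began exactly at the annotated start and was 7 bases long. Naca had a 5-base tract ahead of its annotated start. The window of Tpt1 held no tract, and of the windows of Btf3 the upstream start held a tract of 5 bases away from the start. Among the 8568 counted genes with a window, 42.2% held such a tract somewhere and 2.92% held it at the start, against 64.9% and 22.8% of the 57 ribosomal protein genes with a window. The windows follow annotated starts, which were not measured here, so a missing tract says only that these letters were not in this window. Pabpc1 and Npm1 were not matched.

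In GRCm38 the genes lie at chromosome 14, 75845093 to 75848525, + strand (Tpt1), chromosome 15, 36595661 to 36609668, − strand (Pabpc1), chromosome 10, 111473223 to 111498150, + strand (Nap1l1), chromosome 10, 128035575 to 128048637, + strand (Naca), chromosome 13, 98309896 to 98317006, − strand (Btf3), chromosome 19, 6057844 to 6059524, + strand (Fau) and chromosome 11, 33152287 to 33163206, − strand (Npm1). Reads were counted over their exons. Tpt1 has 6 named pseudogenes and Fau has 2, and how reads shared with these copies were counted is not given in the sources used here. Snora31 lies within Tpt1 and the snoRNA Gm25117 within Nap1l1 on the same strand. The lncRNA Gm9828 overlaps Btf3 on the opposite strand.

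Between 27800983 and 47725557 reads were counted per library, and the 7 genes together took 0.248% to 0.531% of them, with 3606 to 70750 counts per gene and library, so counting error was small beside the spread between experiments. All 8 macrophage markers examined (Adgre1, Csf1r, Cd68, Itgam, Lyz2, Cd14, Spi1, Ptprc) were counted in every library, and no row was found for the markers of other cell types Cd3e, Epcam, Col1a1, Pecam1, Ncr1 and Flt3 in the table used here, which holds no gene with a 0. Tnf, an early LPS target, was higher with LPS in total mRNA by 3.21 on the log2 scale. Levels are given in CPM, counts divided by the library size after TMM scaling, which sets the bulk of genes equal between libraries. They are shares of the mRNA pool, so a change in the amount of an mRNA and a change in the rest of the pool cannot be told apart. Calls use an adjusted p of at most 0.25, the false discovery rate set in the study's methods.

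**Figure D1:**
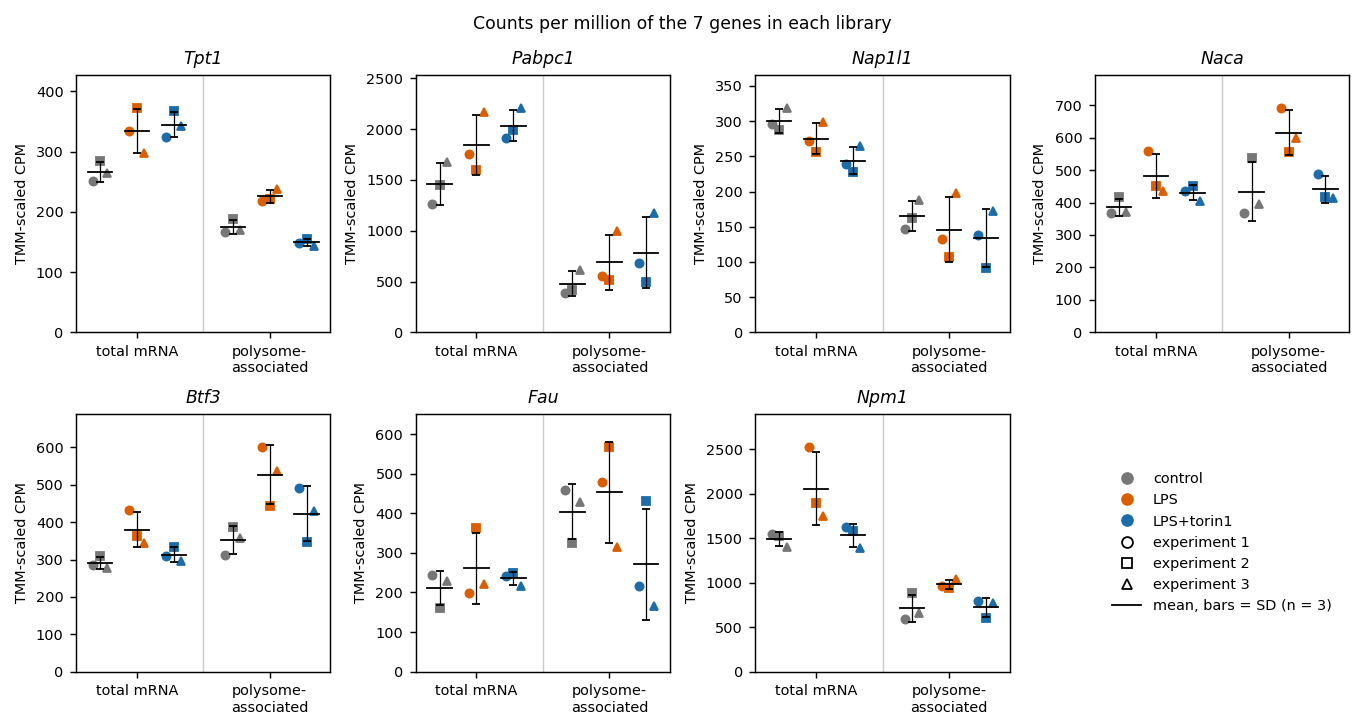
TMM-scaled CPM (y axis, linear from 0) of each gene in the 18 libraries, total mRNA at the left of each panel and polysome-associated mRNA at the right. Symbols mark experiments 1 to 3, colours the treatments, lines the mean and bars the SD of 3 libraries. In polysome-associated mRNA the Tpt1 points of the 3 treatments form separate groups, from 144 to 155 with torin1 and from 218 to 237 with LPS alone.

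After 6 h of LPS most of these mRNAs rose relative to the bulk of genes, both in total mRNA and on polysomes. In total mRNA 5 of the 7 genes were called higher, Npm1, Btf3, Pabpc1, Tpt1 and Naca, with log2 fold changes from 0.32 to 0.46, where 32.2% of all genes were called higher. In polysome-associated mRNA 4 were called higher, Btf3, Naca, Npm1 and Tpt1, by 0.37 to 0.58, where 26.2% of all genes were. No member was called lower with TMM scaling and no replicate block. With the experiment as a block, Nap1l1 was also called lower in total mRNA (−0.13, edgeR adjusted p = 0.150), where 37.8% of all genes were. The median change of the 7 was 0.33 in total and 0.46 in polysome-associated mRNA, while the median over all genes was −0.02 and −0.03. In polysome-associated mRNA the calls varied with the experiments used. Without experiment 1, 0 of the 7 were called higher, where 1881 of all genes were. Without experiment 3 it was 1 (Btf3), where 2003 were, and without experiment 2 it was 5, where 3495 were. With all experiments 2951 genes were called higher.

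The size and even the sign of the LPS change depend on the scaling. TMM factors were 1.13 to 1.18 in control libraries and 0.875 to 0.927 in LPS libraries. When counts were divided by the library totals alone, the median of all genes shifted to −0.38 in both RNA types, and the calls over all genes went from 3616 higher and 3855 lower to 1722 higher and 6966 lower in total mRNA, and from 2951 and 3215 to 1539 and 6101 in polysome-associated mRNA. With that scaling no member was called higher in either RNA type, Nap1l1 was called lower in both (log2 −0.49 and −0.54), and Tpt1, Pabpc1, Naca and Fau in total mRNA and Fau in polysome-associated mRNA changed sign. With upper-quartile scaling, which put the median of all genes at −0.15, the polysome calls numbered 4 and those of total mRNA 4 higher and 1 lower. The rises of these genes are therefore rises relative to the bulk of genes, and their absolute amounts per cell were not measured.

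**Figure D2:**
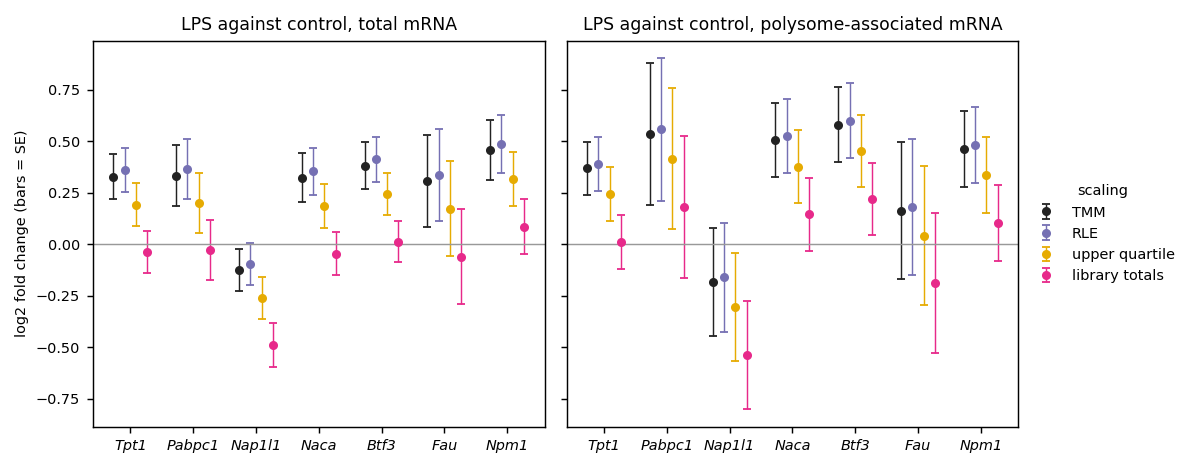
log2 fold change of LPS against control (y axis) for each gene with 4 scalings of the counts, in total mRNA (left) and polysome-associated mRNA (right). Points are edgeR estimates and bars their SE. All points move down with library totals, to between −0.49 and 0.09 in total mRNA, where Tpt1, Pabpc1, Naca and Fau change sign.

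Torin1 given with LPS lowered 4 of these mRNAs on polysomes and 3 in total mRNA, with Npm1 in both. In polysome-associated mRNA 4 of the 7 were called lower than with LPS alone, Fau (−0.74), Tpt1 (−0.60), Naca (−0.48) and Npm1 (−0.44), where 19.8% of all genes were called lower. In total mRNA 3 were called lower, Npm1 (−0.42), Btf3 (−0.28) and Nap1l1 (−0.18), where 26.4% of all genes were. None was called higher without a replicate block. With the experiment as a block, Btf3 was added to the lower genes on polysomes, where 26.1% of all genes were called lower, and in total mRNA Naca was added to the lower genes (31.4% of all genes) and Pabpc1 was called higher (32.6%). The median of the 7 was −0.44 in polysome-associated and −0.16 in total mRNA, and the medians over all genes were −0.02 and 0.00. The direction of each polysome change was the same under every scaling and with every experiment left out, but the calls were not. Without experiment 3, 0 of the 7 were called lower, where 555 of all genes were. Without experiment 1 it was 1 (Tpt1), where 740 were, and without experiment 2 it was 5, where 2795 were. With all experiments 2223 genes were called lower. In total mRNA only Npm1 was called without experiment 1, where 2572 of all genes were called lower. With library totals the calls over all genes in polysome-associated mRNA changed from 2125 higher and 2223 lower to 2667 higher and 1629 lower, and 4 members were again called lower.

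**Figure D3:**
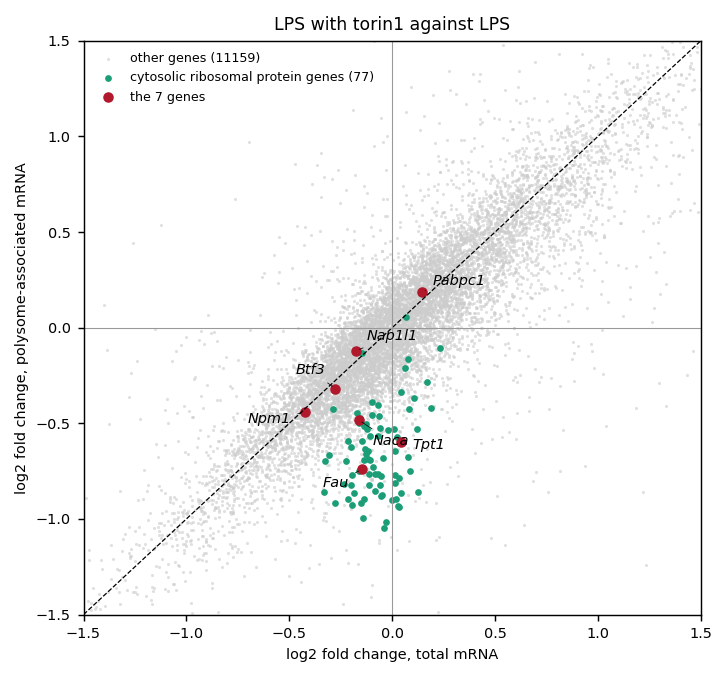
log2 fold change of LPS with torin1 against LPS alone in total (x axis) and polysome-associated mRNA (y axis) for all genes within ±1.5 on both axes. The dashed line marks equal change. Tpt1 (0.04 and −0.60) and Fau (−0.15 and −0.74) lie among the ribosomal protein genes below the line, and Btf3 (−0.28 and −0.32) and Npm1 (−0.42 and −0.44) lie next to it.

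Tpt1 gave the clearest response to torin1. In polysome-associated mRNA its level was 167, 188 and 169 CPM in control cells of experiments 1, 2 and 3, 218, 221 and 237 with LPS, and 149, 155 and 144 with LPS and torin1. The 3 treatments did not overlap, and every torin1 library lay below every control library. The fall from LPS to LPS with torin1 was −0.60 on the log2 scale (SE 0.129, edgeR adjusted p = 0.0135), and it measured −0.55, −0.51 and −0.72 in the 3 experiments.

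Total Tpt1 mRNA behaved otherwise. It was 250.3, 284 and 264 CPM in control, 333, 372 and 298 with LPS, and 325, 367 and 342 with LPS and torin1. All LPS libraries lay above all control libraries (log2 0.33, SE 0.110, edgeR adjusted p = 0.0311), and the torin1 libraries overlapped those with LPS alone (0.04, SE 0.109, edgeR adjusted p = 0.802). In polysome-associated mRNA the LPS rise was 0.37 (SE 0.129, edgeR adjusted p = 0.0495).

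Both subunits of the nascent polypeptide-associated complex rose with LPS relative to the bulk of genes, and with library totals neither was called. Naca in polysome-associated mRNA was 367, 537 and 395 CPM in control, 691, 555 and 599.8 with LPS, and 489, 418 and 415 with torin1. The LPS libraries lay above both other sets, while control and torin1 libraries overlapped. The change was 0.51 with LPS (SE 0.179, edgeR adjusted p = 0.0510) and −0.48 with torin1 (SE 0.179, edgeR adjusted p = 0.0977).

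In total mRNA Naca was 367, 416 and 372 CPM in control, 558, 452 and 436 with LPS, and 436, 450.1 and 405 with torin1. LPS raised it by 0.32 (SE 0.118, edgeR adjusted p = 0.0441). The torin1 libraries overlapped those with LPS (−0.16, SE 0.117, edgeR adjusted p = 0.327), and with the replicate block the change was called (−0.16, edgeR adjusted p = 0.234).

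Btf3 in polysome-associated mRNA was 311, 388 and 358 CPM in control, 599.9, 444 and 537 with LPS, and 492, 346 and 429.9 with torin1. It had the largest LPS rise of the 7 on polysomes, 0.58 (SE 0.181, edgeR adjusted p = 0.0306). The torin1 change was −0.32 (SE 0.181, edgeR adjusted p = 0.264) without a replicate block and was not called, and with the experiment as a block it was called lower (−0.32, edgeR adjusted p = 0.195). It measured −0.29, −0.36 and −0.32 in the 3 experiments.

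In total mRNA Btf3 was 286, 310.3 and 278 CPM in control, 433, 363 and 344 with LPS, and 311, 335 and 295 with torin1. The LPS libraries lay above both other sets. Btf3 rose by 0.38 with LPS (SE 0.112, edgeR adjusted p = 0.0176) and fell with torin1 (−0.28, SE 0.112, edgeR adjusted p = 0.0894). For Btf3 the torin1 difference was of like size in both RNA types.

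Npm1, the nucleolar chaperone, also had torin1 changes of like size in both RNA types. Its total mRNA was 1551, 1528 and 1404 CPM in control, 2519, 1893 and 1747 with LPS, and 1630.2, 1576 and 1389 with torin1. All LPS libraries lay above all others, with experiment 1 far above experiments 2 and 3. The change was 0.46 with LPS (SE 0.144, edgeR adjusted p = 0.0240) and −0.42 with torin1 (SE 0.144, edgeR adjusted p = 0.0492).

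On polysomes Npm1 was 596, 879 and 657 CPM in control, 966, 936 and 1038 with LPS, and 799, 599.6 and 766 with torin1. The LPS libraries again lay above all others. It rose by 0.46 with LPS (SE 0.184, edgeR adjusted p = 0.0772) and fell with torin1 (−0.44, SE 0.184, edgeR adjusted p = 0.135).

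Nap1l1, the other histone chaperone, was not called higher with LPS. Its total mRNA was 295, 287 and 318 CPM in control, 271, 256 and 298 with LPS, and 239, 227 and 265 with torin1. The LPS value was −0.13 (SE 0.103, edgeR adjusted p = 0.348), and was called lower with the replicate block (−0.13, edgeR adjusted p = 0.150). Torin1 lowered it by a small amount (−0.18, SE 0.103, edgeR adjusted p = 0.228). The torin1 libraries lay below all control libraries and overlapped those with LPS alone. The torin1 difference was −0.18, −0.17 and −0.17 in the 3 experiments.

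On polysomes Nap1l1 was 146, 163 and 188 CPM in control, 133, 107.1 and 198 with LPS, and 139, 91.2 and 173 with torin1. All 3 treatments overlapped. The changes of −0.18 with LPS and −0.12 with torin1 had an SE of 0.263 each (edgeR adjusted p = 0.642 and 0.798), against 0.129 for Tpt1. Nap1l1 holds a tract directly at its annotated start, as shown above.

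Pabpc1, the poly(A)-binding protein, was called higher with LPS in total mRNA (with library totals it was at −0.03) and was not called lower with torin1. Its total mRNA was 1261, 1447 and 1674 CPM in control, 1759, 1598 and 2169 with LPS, and 1911, 1986 and 2205 with torin1. The LPS change was 0.33 (SE 0.146, edgeR adjusted p = 0.0858), and the torin1 value was 0.14 (SE 0.146, edgeR adjusted p = 0.499), which was called higher with the replicate block (0.15, edgeR adjusted p = 0.246). The libraries of LPS overlapped those of both other treatments.

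On polysomes Pabpc1 was 391, 422 and 617 CPM in control, 555, 514 and 1001 with LPS, and 682, 497 and 1177 with torin1. Experiment 3 was the highest in every treatment. The LPS change was 0.53 with an SE of 0.344 (edgeR adjusted p = 0.266), and the torin1 change 0.19 with an SE of 0.343 (edgeR adjusted p = 0.756). Neither passed the threshold with edgeR, TMM scaling, all libraries and no replicate block. In that fit 4 of the genes described here were called higher with LPS on polysomes, and Pabpc1 was the next by p-value. The count was 5 with RLE size factors, with DESeq2, with only the 2 treatments compared and without experiment 2, all without a replicate block. Over all genes 3080, 2988, 3066 and 3495 were called higher in these fits, in the same order, against 2951 in the first.

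Fau, the S30 fusion gene, had the lowest torin1 value of the 7 on polysomes, with replicates far apart. In polysome-associated mRNA it was 457, 326 and 429 CPM in control, 478, 566 and 314 with LPS, and 216, 431 and 166 with torin1. The torin1 library of experiment 2 lay among the control and LPS libraries, and those of experiments 1 and 3 lay below all of them. The torin1 change was −0.74 (SE 0.335, edgeR adjusted p = 0.167), or −1.15, −0.39 and −0.92 in the 3 experiments, and without experiment 2 it was −1.05 (edgeR adjusted p = 0.0124). Fau was not called lower without experiment 1 or without experiment 3. LPS changed it by 0.16 (SE 0.333, edgeR adjusted p = 0.750).

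In total mRNA Fau was 244, 161 and 228 CPM in control, 199, 363 and 221 with LPS, and 242, 249 and 217 with torin1. The treatments overlapped throughout. The LPS change of 0.31 (SE 0.223, edgeR adjusted p = 0.287) came from experiment 2, where it was 1.17, against −0.29 and −0.05 in experiments 1 and 3, and without experiment 2 it was −0.17. The torin1 change of −0.15 (SE 0.223, edgeR adjusted p = 0.659) became 0.13 without that experiment.

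Translation efficiency, the change on polysomes beyond that in total mRNA, had torin1 estimates that varied among the 7 genes. Differences between the genes were not tested. For torin1 against LPS the change in translation efficiency was −0.64 for Tpt1, −0.59 for Fau and −0.32 for Naca on the log2 scale. For Btf3 (−0.04), Npm1 (−0.02), Pabpc1 (0.04) and Nap1l1 (0.05) it was near 0, as was the median over all genes (−0.02). The median of the 77 cytosolic ribosomal protein genes was −0.58. The values of Btf3, Npm1 and Pabpc1 changed sign under some of the alternatives, as values near 0 would. In single experiments Pabpc1 ran from −0.36 to 0.21, Npm1 from −0.38 to 0.35, Btf3 from −0.24 to 0.19 and Nap1l1 from −0.06 to 0.24. Fau ran from −1.43 to 0.15, while Tpt1 (−0.92 to −0.49) and Naca (−0.43 to −0.14) stayed below 0.

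With edgeR's interaction test over the 18 libraries no gene of the table passed the threshold (0% called, with 110 genes at an unadjusted p under 0.05), and the analogous counts for LPS against control were 0% and 44. The unadjusted edgeR p of Tpt1 was 0.000619 (SE 0.152) and placed it 5th of 11243 genes, and its adjusted p was 1.00. Total and polysome libraries come from the same lysates, and with the lysate as a replicate block 25 genes (0.222%) were called, all lower. These included Tpt1 (−0.64, SE 0.138, edgeR adjusted p = 0.188) and 20 of the 77 ribosomal protein genes. With the block Fau was at −0.72 (SE 0.262, edgeR adjusted p = 0.993, unadjusted 0.0153) and Naca at −0.33 (SE 0.145, edgeR adjusted p = 0.993, unadjusted 0.0411), and neither was called. DESeq2 called 13 genes, Tpt1 among them, and an analysis of partial variance called 24 genes and no member.

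LPS against control gave no called change in translation efficiency among these genes. The 7 estimates lay between −0.14 (Fau) and 0.20 (Pabpc1), with standard errors from 0.152 to 0.438. Tpt1, which had the smallest standard error of the 7, was at 0.04.

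The genes differed in their polysome level relative to their total level in control cells. Each CPM is a share of its own library, so the ratio is a relative enrichment and not the fraction of an mRNA on polysomes. The ratio of polysome to total CPM in control cells ranged from 0.321 for Pabpc1 and 0.469 for Npm1 to 1.93 for Fau. On the log2 scale Pabpc1 was at −1.64 ± 0.18 (SD, n = 3), lower than all but 0.774% of genes, and Npm1 at −1.09 ± 0.29, at the 4.12th percentile. Nap1l1 (−0.86 ± 0.13, 8.51th percentile) and Tpt1 (−0.61 ± 0.030, 17.8th percentile) were also low. Naca (0.15 ± 0.19) and Btf3 (0.27 ± 0.13) were near or above the median gene, and Fau stood at 0.95 ± 0.061, at the 92.0th percentile.

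With LPS and torin1 the log2 ratio of Tpt1 was −1.13, −1.24 and −1.25 in the 3 lysates, against −0.61, −0.75 and −0.33 with LPS alone. The lysates did not overlap, and Tpt1 went from the 17.8th to the 2.62th percentile of all genes. Fau went from 1.27, 0.64 and 0.51 to −0.16, 0.79 and −0.39, with experiment 2 against the direction of the others. Naca went from 0.31, 0.30 and 0.46 to 0.16, −0.11 and 0.03, without overlap. Pabpc1, already low, had −1.66, −1.64 and −1.12 with LPS and −1.49, −1.998 and −0.91 with torin1.

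**Figure D4:**
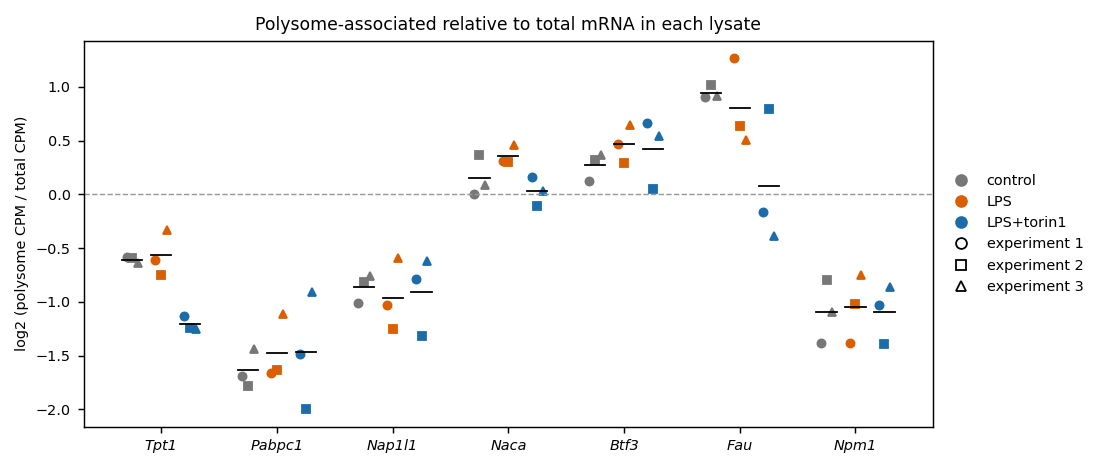
log2 ratio of polysome CPM to total CPM (y axis) in each of the 9 lysates for each gene. Colours mark treatments, symbols experiments and lines the means. The torin1 lysates of Tpt1 (−1.25 to −1.13) lie below all its other lysates, while those of Pabpc1, Nap1l1, Btf3 and Npm1 overlap the LPS lysates.

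Per length of exon, Npm1 was the most abundant of the 7 in total mRNA of control cells, at 561 ± 29.7 CPM per kilobase (SD, n = 3). Pabpc1 (223 ± 31.6), Fau (219.5 ± 45.6) and Btf3 (168 ± 9.70) followed. The first pair differed by less than its spread. Tpt1 was at 111.8 ± 7.05, and Nap1l1 (60.1 ± 3.27) and Naca (56.6 ± 3.93) did not differ beyond their spread. These lengths join all annotated exons of a gene, so genes with long exons that macrophages may not use appear lower. On polysomes Fau came first, at 420.4 ± 72.0.

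Set against control cells, cells with LPS and torin1 gave 3 calls among the 7 genes in either RNA type, a smaller share than over all genes. In total mRNA Pabpc1 (0.48, edgeR adjusted p = 0.0208) and Tpt1 (0.37, edgeR adjusted p = 0.0172) were called higher and Nap1l1 lower (−0.30, edgeR adjusted p = 0.0339), where 33.1% of genes were called higher and 33.6% lower. In polysome-associated mRNA Pabpc1 was called higher (0.72, edgeR adjusted p = 0.128), where 27.2% were, and Fau (−0.58, edgeR adjusted p = 0.206) and Tpt1 (−0.23, edgeR adjusted p = 0.198) lower, where 31% were. Tpt1 thus stood above control in total mRNA and below control on polysomes. The polysome calls varied with the experiments used, from 0 without experiment 1 and 1 without experiment 3 to 5 without experiment 2. Over all genes 2364 were called higher and 2179 lower without experiment 1. The counts were 2030 and 2172 without experiment 3, and 3677 and 3950 without experiment 2. Naca, Btf3 and Npm1 were within 0.26 of control in both RNA types and none was called, except Naca in total mRNA with the replicate block (0.16, edgeR adjusted p = 0.209, where 36.6% of genes were called higher). With library totals the median of all genes was at −0.30 and no member was called higher. This comparison shares its control libraries with the LPS comparison and its torin1 libraries with the torin1 comparison.

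The spread between experiments differed widely among the 7. In polysome-associated mRNA the SD within treatments was 0.072 on the log2 scale for Tpt1, and only 0.756% of genes had a lower one. It was 0.21 to 0.22 for Naca, Btf3 and Npm1, 0.39 for Nap1l1, 0.51 for Fau and 0.52 for Pabpc1, while the median of all genes was 0.26. In total mRNA Fau had 0.33 and the other genes 0.10 to 0.19, and the median of all genes was 0.18.

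In the polysome libraries of LPS-treated cells, Fau deviated in the opposite direction to Pabpc1 and Nap1l1 in experiments 2 and 3. In experiment 2 Fau lay 0.36 above its treatment mean with LPS and 0.79 above it with torin1, while Pabpc1 lay at −0.36 and −0.57 and Nap1l1 at −0.40 and −0.51. In experiment 3 Fau lay at −0.49 and −0.59, Pabpc1 at 0.60 and 0.68, and Nap1l1 at 0.48 and 0.41. In experiment 1 Fau lay at 0.12 and −0.20, Pabpc1 at −0.25 and −0.11, and Nap1l1 at −0.08 and 0.10. There Fau and Pabpc1 shared a direction with torin1. The median over all genes was within 0.02 of 0 in each of these libraries.

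The same libraries also differed by gene length, taken over all annotated exons of a gene. The exons of Fau are shorter than those of all but 2.53% of genes, and those of Pabpc1 and Nap1l1 are longer than those of 73.1% and 56.9%. The shortest 10% of genes exceeded the longest 10% by 0.33 on the log2 scale in the LPS polysome library of experiment 2 and by 0.42 in the torin1 library, and lay below it in experiment 3 (−0.30 and −0.34). In the control polysome libraries the difference was 0.06, 0.08 and −0.12, and Fau lay lowest in experiment 2. Btf3, also in the shortest 10%, lay at −0.24 and −0.27 in experiment 2, against the direction of Fau. Naca, with exons longer than those of 75.3% of genes, lay at −0.14 and −0.07 in experiment 2. In experiment 3 Naca lay at −0.03 and −0.08, unlike Pabpc1 and Nap1l1. The part of length in these values was not tested.

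**Figure D5:**
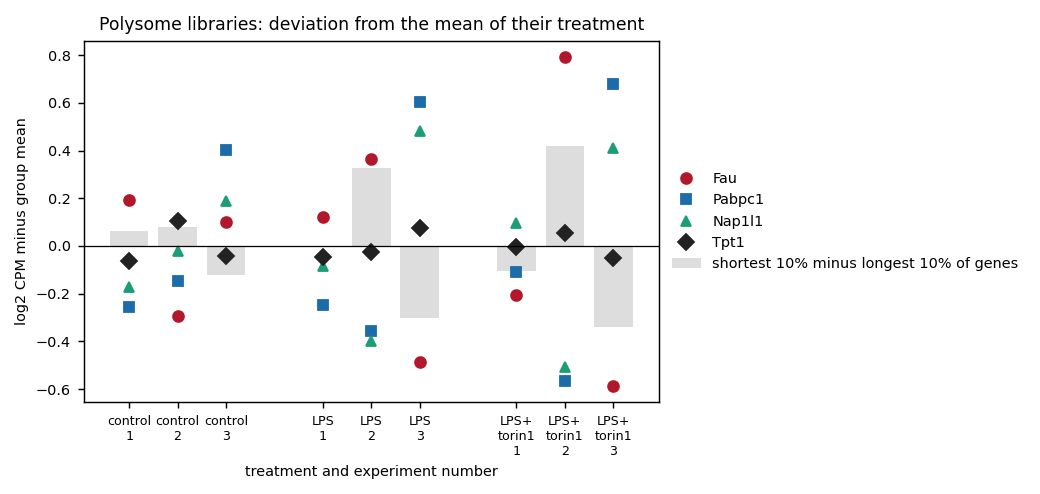
Deviation of log2 CPM from the mean of the treatment (y axis) in the 9 polysome libraries for Fau, Pabpc1, Nap1l1 and Tpt1. Bars show the median deviation of the shortest 10% of genes minus that of the longest 10%. In experiments 2 and 3 with LPS, Fau lies on one side of 0 and Pabpc1 and Nap1l1 on the other, and Tpt1 stays within 0.11 in all 9 libraries.

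The ribosomal protein genes, the main group of TOP mRNAs, give the scale for these values. Of the 77 cytosolic ribosomal protein genes, 60 were called higher with LPS in total mRNA and 48 on polysomes, with medians of 0.28 and 0.38 and none lower, but with library totals 0 were called higher and 10 lower in total mRNA (median −0.09) and 2 higher on polysomes (median 0.02). With torin1, 66 were called lower in polysome-associated mRNA and none higher, with a median of −0.69 (57 lower, median −0.60 with library totals), while in total mRNA 10 were lower and 1 higher (17 and 2 with the replicate block), with a median of −0.08. Tpt1 and Fau had polysome changes near that median, and Naca, Npm1, Btf3, Nap1l1 and Pabpc1 smaller ones.

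Other TOP genes outside the ribosome were mixed. Of 9 genes for translation factors, 2 were called lower and 2 higher with torin1 in polysome-associated mRNA, and 1 lower and 3 higher in total mRNA. Their lowest change in translation efficiency was that of Eif3f, an eIF3 subunit (−0.32, SE 0.145, edgeR adjusted p = 1.00), and their highest that of Eef2, the translocation factor (0.24, SE 0.357, edgeR adjusted p = 1.00). Eef2 itself was called higher with torin1 on polysomes (0.80, edgeR adjusted p = 0.0959). Of the further TOP genes Hnrnpa1 and Vim were counted, with 0.13 and 0.30 in translation efficiency. Vim, the intermediate filament protein vimentin, was called higher with torin1 in total (0.48) and polysome-associated mRNA (0.77).

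Direct relatives of the 7 genes were compared where they were counted. Npm3, a relative of Npm1, fell with torin1 on polysomes (−0.80, edgeR adjusted p = 0.00767) and in total mRNA (−0.50, edgeR adjusted p = 0.00389). Rps27a, which like Fau joins a ubiquitin-type sequence to a ribosomal protein, was called lower on polysomes (−0.47, edgeR adjusted p = 0.124). Pabpc4, a relative of Pabpc1, had −0.30 on polysomes (edgeR adjusted p = 0.468) and was called lower in total mRNA (−0.26, edgeR adjusted p = 0.142).

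Nap1l4 was called lower with torin1 in total mRNA (−0.26, edgeR adjusted p = 0.0445), as Nap1l1 was, and had −0.24 on polysomes (edgeR adjusted p = 0.333), where it was called lower with the replicate block (−0.24, edgeR adjusted p = 0.143). Btf3l4 had 0.11 in total mRNA and −0.03 on polysomes, and neither passed the test. Of all 12 relatives and partner genes, 5 were called lower and 2 higher with torin1 on polysomes, and 6 lower and 1 higher in total mRNA. Their changes in translation efficiency ran from −0.32 for Rps27a to 0.29 for Paip1, which encodes a binding partner of PABPC1. None was called.

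Among 15 genes of the mTORC1 pathway and its effectors on translation, 7 were called higher and 4 lower with LPS in total mRNA, or 1 higher and 9 lower with library totals. Larp1, whose product binds TOP tracts, rose by 0.71 in total (edgeR adjusted p = 0.000307) and 0.62 in polysome-associated mRNA (edgeR adjusted p = 0.00782), and by 0.35 and 0.27 with library totals. With torin1, 2 of the 15 were called lower (4 with the replicate block) and 3 higher on polysomes. The changes in translation efficiency with torin1 ran from −0.35 for Eif4ebp1, the gene of 4E-BP1, to 0.30 for Pdcd4, an inhibitor of the helicase eIF4A, and none was called. Pdcd4 rose with torin1 by 2.23 in total and 2.53 in polysome-associated mRNA.

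The genes nearest to the median pattern of the 7 were Eif3k, Rps27a, Rpl17, Rps3a1 and Zcchc9. Likeness was the Euclidean distance over the 4 log2 fold changes (LPS against control and torin1 against LPS, in both RNA types), each from 9 libraries. The distances were 0.0654 to 0.114. Of the 7 genes Naca lay nearest to their own median (0.0602), with 0 other genes nearer, while Nap1l1 (0.852) and Pabpc1 (0.703) were farther from it than 3840 and 2760 genes outside the group. The 7 genes themselves set that median, so the nearness of a member to it is in part built in.

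The tract at the annotated start can be set beside the polysome values of all genes with a window. The median change in translation efficiency with torin1 was −0.04 over the 250 counted genes with such a tract and −0.02 over the 8318 without. Of the 7 genes Fau and Nap1l1 have it, with −0.59 and 0.05.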

How the data were processed

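Total and polysome-associated mRNA of RAW264.7 cells was measured in 18 libraries, 3 per treatment and RNA type, grouped by the labels. The authors sequenced stranded libraries in paired ends after depletion of ribosomal RNA and ran the nextflow RNAseq pipeline (version 1.3, default settings), with Hisat2 for alignment to GRCm38 and featureCounts with Ensembl genes for counting. Genes that do not code for protein, and genes with a 0 in any library, were taken out by the authors. The deposited values are raw counts of 11243 genes, 27800983 to 47725557 per library, and the lowest value is 1. Replicates differed by more than sampling noise (chi-square per degree of freedom of at least 26.3).

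Counts were tested in R 4.3.3 with edgeR 4.0.16 (quasi-likelihood test, TMM factors over all libraries), with the 9 libraries of an RNA type in a model, or all 18 with an interaction term for translation efficiency, and Benjamini-Hochberg adjustment over all genes at an FDR of 0.25. A standard error is the log2 fold change divided by the square root of F. The study's own tool, anota2seq, was not run. An analysis of partial variance (limma 3.58.1, pseudocount 0.5), DESeq2 1.42.0, other scalings, a minimum of 10 counts, an FDR of 0.05, left-out experiments, fewer treatments and a replicate block were alternatives. Scripts were tested on simulated data. Deviations from group means of the 9 total and polysome pairs, which the methods derive from shared lysates, correlated at 0.389 or more (mean 0.480). Libraries of an experiment number paired across treatments in total mRNA (9 pairs, 0.149 to 0.424) and between LPS and LPS with torin1 on polysomes (3 pairs, 0.490 to 0.740), against a mean of −0.155 for different numbers, so results whose call the experiment block changes are given with both fits.

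The 7 genes and all gene lists were chosen with earlier results of these data known, so list counts are descriptions. Named were all 7 genes, direct paralogs, the lowest and highest torin1 change in translation efficiency of each list, and the 5 genes nearest to the median of the 7. Hnrnpa1 and Vim are these ends for a list of which 2 genes were counted. Some genes that the rule and the marker list would name are not reported here. Names outside this rule, chosen after their values were seen, are Larp1 and Tnf. Exon lengths and overlaps are from GENCODE M21, and start windows from RefSeq. The comparison by gene length was added after the data were seen.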

Additional observations from a re-analysis of the deposited data

How the results depend on the processing

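Counts of called members varied most when an experiment was left out. In polysome-associated mRNA they ranged from 0 to 5 for LPS against control, LPS+torin1 against LPS and LPS+torin1 against control. Polysome calls over all genes also fell without experiment 1 or 3 and rose without experiment 2. In total mRNA the counts of members ranged from 1 to 2 for LPS+torin1 against LPS, and stayed at 5 and 3 for the others. In translation efficiency they ranged from 0 to 2 for LPS+torin1 against control and were 0 otherwise. The 2 came without experiment 2, where 23 of all genes were called higher and 407 lower. At an FDR of 0.05 the polysome counts were 2 with LPS, 1 with torin1 and 0 against control, and torin1 in total mRNA gave 1. Calls over all genes fell at that FDR too. On polysomes 1762 were called higher with LPS and 699 lower with torin1. For LPS+torin1 against control 1981 were higher and 2012 lower on polysomes, and torin1 gave 1520 lower in total mRNA. With library totals LPS gave 1 in either RNA type. DESeq2 called 1 member in translation efficiency with torin1. The cause of these shifts was not tested.

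With the experiment as a replicate block, 5 members were called for torin1 in total mRNA. With the lysate block 1 was called for torin1 in translation efficiency. The block moved no other count of members by over 1.5 times. Polysome libraries of control cells shared only a number with those of the other treatments (correlations of deviations from −0.0923 to 0.389). There the block called Pabpc1 higher with LPS (0.4896, edgeR adjusted p = 0.0314) and Nap1l1 lower with LPS and torin1 (−0.3499, edgeR adjusted p = 0.121), and raised the counts of members from 4 to 5 and from 3 to 4. Over all genes it raised the polysome calls as well, from 2951 to 3340 higher with LPS and from 3480 to 4045 lower with LPS and torin1 against control. The block took no call from a member in any comparison.

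Of the values of single genes under an alternative, 493 kept their direction and side of the threshold, 41 reversed, 29 gained and 53 lost a call. The tally leaves out translation efficiency for LPS+torin1 against control. Of the losses 11 came with the FDR of 0.05, which can only take calls away. Reversed with library totals were LPS in total mRNA for Pabpc1 (−0.0281), Tpt1 (−0.0374), Naca (−0.045) and Fau (−0.0589), LPS on polysomes for Fau (−0.1877), and LPS+torin1 against control for Naca (−0.136), Fau (−0.1389), Btf3 (−0.192) and Npm1 (−0.2614) in total mRNA and Btf3 (−0.0085), Naca (−0.2471) and Npm1 (−0.2504) on polysomes. With upper-quartile scaling Naca (−0.0411) and Npm1 (−0.0448) on polysomes and Npm1 (−0.0653) in total mRNA reversed against control, as did Npm1 in translation efficiency with torin1 (0.0006). In translation efficiency both DESeq2 and RLE size factors reversed Npm1 with LPS (−0.0037) and Btf3 (0.01) and Npm1 (0.0321) with torin1, and partial variance reversed Pabpc1 with torin1 (−0.1875) and Pabpc1 (−0.2628) and Nap1l1 (0.2256) with LPS. The partial variance slopes of polysome-associated on total mRNA were 2.29 for Pabpc1 and 3.53 for Nap1l1. Both exceed the maximum slope for translation set in the study's methods.

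Leaving out an experiment reversed, with the lowest and highest value, LPS in total mRNA for Fau (−0.1688 to 0.6106) and on polysomes for Fau (−0.1626 to 0.4144), torin1 against LPS in total mRNA for Fau (−0.3403 to 0.1285) and Tpt1 (−0.0281 to 0.0791), and LPS+torin1 against control for Fau in total mRNA (−0.0403 to 0.2777) and for Naca (−0.1302 to 0.2444) and Npm1 (−0.1381 to 0.3209) on polysomes. In translation efficiency it reversed LPS for Fau (−0.3801 to 0.0063), Nap1l1 (−0.2189 to 0.0922), Npm1 (−0.1526 to 0.1472) and Tpt1 (−0.0919 to 0.1427), and torin1 for Btf3 (−0.1325 to 0.0555), Npm1 (−0.1952 to 0.1423) and Pabpc1 (−0.0741 to 0.1896).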
